A study of Mus musculus with 13 samples.

Results

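Small RNAs of spermatogonia from Pld6 knockout mice were compared with those of wild-type spermatogonia. The comparison used 5 of the 13 small RNA libraries of the series: 1 wild-type library and 4 libraries with the tag Pld6KO, which were 2 biological samples sequenced as 2 technical replicates each. After the technical replicates were merged, 3 samples of 9 entered. All libraries were labelled as spermatogonia sorted by flow cytometry after Hoechst staining from C57BL6/J mice of 3 to 4 weeks, and the study's methods describe a Pld6 knockout line backcrossed to C57BL/6J. The labels of the samples give no genotype. It was read from the file names and, for the knockout, from the header cells of the deposited tables, and small RNA reads cannot check the targeted gene. Technical replicate 1 of each knockout sample came from a 50-bp run, as did the wild-type library, and technical replicate 2 from a 100-bp run. How many animals went into a sample is not given in the sources used here.

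Wild type had 1 library, so no test between the genotypes was possible. Each result is given as the value of every sample, the ratio of the knockout mean to wild type, and whether both knockout samples lay on the same side of wild type. The genotype cannot be told apart from whatever else separated the libraries, such as depth, sorting and library preparation. The read lists held 13285425 reads in wild type, 7414048 in knockout sample 1 and 1810805 in knockout sample 2. Values of single elements or genes are in RPM, read numbers scaled to a common library size, and 3 reads, taken as the limit of detection, corresponded to 0.226, 0.405 and 1.66 RPM in the same order. Intervals below are 95% Wilson intervals unless named as exact, and cover counting error only.

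PLD6, also called MitoPLD in mammals and Zucchini in flies, sits on the outer mitochondrial membrane and belongs to the phospholipase D family. It acts as an endonuclease that cuts single-stranded piRNA precursors and so sets the 5′ end of primary piRNAs, which as a class begin with U. PIWI proteins carry the piRNAs and cleave complementary RNAs; a cleaved RNA can itself become a piRNA whose first bases pair with those of its partner, the ping-pong cycle. In the male germ line piRNAs act against retrotransposons: LINEs such as L1, LTR elements such as the intracisternal A particle (IAP), and the short noncoding SINEs B1 and B2. Before the pachytene stage many piRNAs are instead made from the 3′ untranslated regions (3′ UTRs) of protein-coding mRNAs.

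The RNAs behind the comparison are shown first by sequences of 24 to 30 nt that matched the promoter regions of repeat families. The first 6 were the most-read of their strand in wild type, a choice that leans towards low knockout values, and the last was the most-read of its strand in the knockout. The first 10 bases are in capitals, since 2 ping-pong partners are complementary over that stretch. The listed strand is the one on which the amplicon of the promoter was written, and each sequence occurs in many copies of its family, so none has a single genomic position.

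L1Md_A, listed strand: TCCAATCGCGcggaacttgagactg
L1Md_A, opposite strand: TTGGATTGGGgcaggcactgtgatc
IAPLTR1_MM, listed strand: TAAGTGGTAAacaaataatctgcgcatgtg
IAPLTR1_MM, opposite strand: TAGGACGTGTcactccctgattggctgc
MT2-MERVL, listed strand: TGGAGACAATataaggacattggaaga
RLTR10C-MMERVK10C, opposite strand: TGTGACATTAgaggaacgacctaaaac
IAPLTR1_MM, listed strand, from the knockout: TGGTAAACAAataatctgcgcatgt

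U at the first base, written T in the read lists, was found in 12 of the 14 most-read wild-type sequences of the 7 promoters. The exceptions were the listed strands of RLTRETN_Mm and RLTR4, with 2 reads each. Of the 5 sequences most read in the knockout, 2 began with U, the printed IAPLTR1_MM sequence among them. Each of the others had 1 knockout read. The L1Md_A sequences had 13 and 11 reads in wild type and 0 in both knockout samples. The IAPLTR1_MM sequence of the listed strand had 44 reads in wild type, 6 in knockout sample 1 and 0 in knockout sample 2, and that of the opposite strand 61, 0 and 0. The MT2-MERVL sequence was read 23, 0 and 0 times and the RLTR10C-MMERVK10C sequence 8, 0 and 0 times. The knockout's own most-read IAPLTR1_MM sequence was read 5 times in wild type, 9 in knockout sample 1 and 0 in knockout sample 2, which is 0.376, 1.21 and 0 RPM.

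A second set shows the most-read wild-type sequence of genes that gave many piRNAs there, placed on GRCm38 by exact match to GENCODE M21 transcripts. Bases 1 and 10 are in capitals, the positions at which primary and ping-pong piRNAs favour U and A.

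Abl2, 3′ UTR, exon 13 of 13, chr1:156646514-156646539, plus strand: TgaattgcgAatgtgtgtagaggatg
Rab11fip4, 3′ UTR, exon 15 of 15, chr11:79696137-79696161, plus strand: TggagaactCtaggtgatggtctga
Tmem245, 3′ UTR, exon 18 of 18, chr4:56873857-56873885, minus strand: TctcatggtActggcatctgcaaacactg
Cbl, 3′ UTR, exon 16 of 16, chr9:44146414-44146440, minus strand: TaacggctcTgtagaagtagaaatagg
Fth1, coding sequence, exon 5 of 5, chr19:9984795-9984822, plus strand: TgagacgtaTtatctgagtgaacaggtg
Tmem38b, 3′ UTR, exon 6 of 6, chr4:53860742-53860771, plus strand: CcgcctgggAataccgggtgctgtaggctt

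The Abl2 sequence was read 232 times in wild type, Rab11fip4 276, Tmem245 249, Cbl 115 and Fth1 466 times, and none of the 5 was read in either knockout sample. The choice by wild-type reads leans towards low knockout values here too. Among those not shown, that of Gabpb2 was read 144, 2 and 0 times. Those of D10Wsu102e, Tfcp2l1 and Bend4 were read 94, 77 and 65 times in wild type and 0 times in the knockout samples. The Tmem38b sequence is shown because it went another way, with 646.5 RPM in wild type, 643.1 in knockout sample 1 and 466.1 in knockout sample 2. It does not begin with U and is the 3′ end of 5S ribosomal RNA, and the transcript holds this stretch.

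The lengths of the reads changed in the piRNA range. Reads of 24 to 33 nt made up 29.83% of all reads in wild type, 22.93% in knockout sample 1 and 14.8% in knockout sample 2. Among distinct sequences the shares were 56.73%, 29.73% and 21.3%, but such shares depend on depth, which differed between the samples. With each sample thinned to 267971 reads of this range, wild type held 169300 distinct sequences. The knockout samples held 93094 and 102645, both below wild type. The commonest length within the range was 27 nt in wild type and 24 nt, next to the miRNA peak, in both knockout samples.

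U at the first base was found in 65.8% (65.75 to 65.85) of 24- to 33-nt reads in wild type, 31.47% (31.4 to 31.54) in knockout sample 1 and 32.08% (31.9 to 32.26) in knockout sample 2. Both knockout samples lay below wild type, and in their mean the share fell by 34.03 percentage points. In reads of 25 to 28 nt the shares were 70.64%, 31.42% and 29.36%, and among distinct sequences of that range 72.44%, 30.37% and 28.35%. A at position 10, favoured by secondary piRNAs, moved much less, from 27.55% in wild type to 25.79% and 23.08%.

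**Figure D1:**
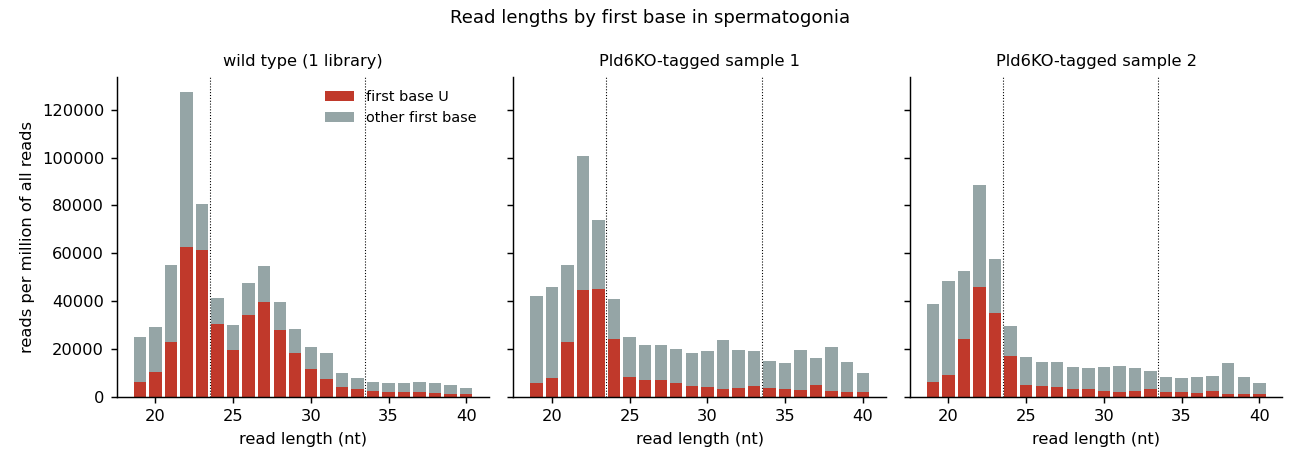
RPM relative to all reads (vertical axis) by read length (horizontal axis, nt) in the wild-type library and the 2 knockout samples, with reads that begin with U in red and other reads in grey; dotted lines enclose 24 to 33 nt. The red peak around 27 nt of wild type is not seen in the knockout samples, while the peak at 22 nt is present in all 3.

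The authors' tables list 262 mouse-specific retrotransposon sequences with their 24- to 33-nt RPM. Their sum was 32894.5 RPM in wild type, 3745.0 in knockout sample 1 and 2799.5 in knockout sample 2, a mean 10.05-fold below wild type. LINEs and LTR elements fell further than SINEs. LINE piRNAs stood at 11492.1 RPM in wild type and at 360.1 and 311.9 RPM in the knockout samples (34.2-fold lower; knockout mean 336 ± 34.1, SD, n = 2). LTR piRNAs stood at 13769.4, 788 and 376.3 RPM (23.65-fold lower; 582.2 ± 291.2). SINE piRNAs stood at 7632.9, 2596.9 and 2111.4 RPM (3.242-fold lower; 2354.1 ± 343.3). In all 3 classes both knockout samples lay below wild type, and so did each of the 4 knockout libraries, of which the highest had 450.3 RPM of LINE, 1012.9 of LTR and 3367.6 of SINE piRNAs.

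Of the 70 retrotransposons with at least 10 RPM in wild type or in the knockout mean, all 70 were more than 2-fold lower in the knockout mean with both knockout samples below wild type (100% of those counted), and none was more than 2-fold higher (0%). All 70 reached the filter through wild type, and 16 of them also did so in the knockout, so this count had to lean towards lower values. Without any filter 235 of 262 sequences were lower in both knockout samples, 2 were higher in both and 25 lay on either side. The median log2 ratio of the 70 was -5.13, from -8.49 to -1.13, which is a median 35.07-fold lower. SINEs rose from 23.2% of the listed total in wild type to 69.34% and 75.42% in the knockout samples, since the other classes fell further.

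**Figure D2:**
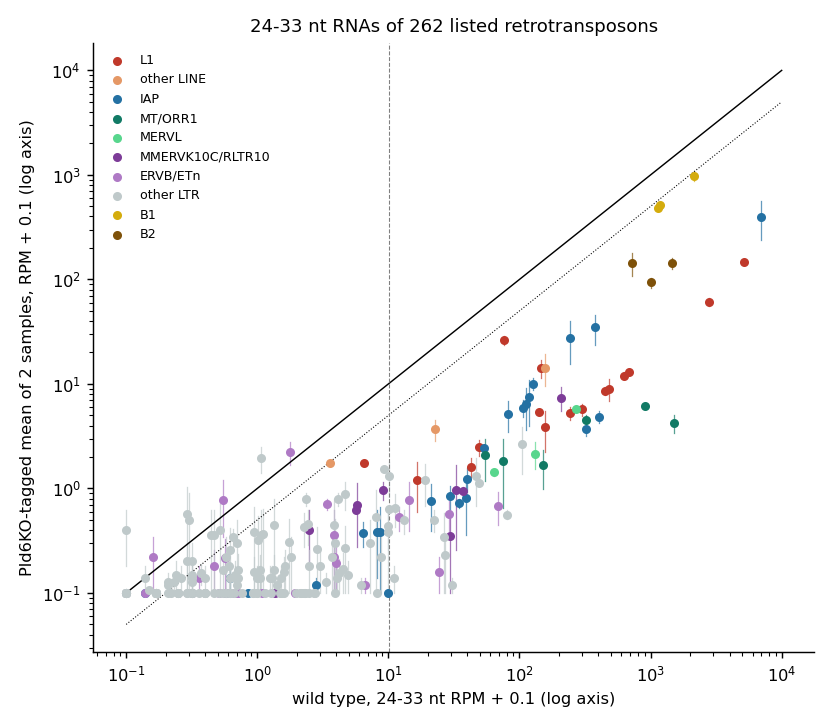
24- to 33-nt RPM plus 0.1 of 262 listed retrotransposons in wild type (horizontal, log axis) and in the knockout mean (vertical, log axis); each point is 1 sequence coloured by family and its thin line joins the 2 knockout samples. The solid line marks equal values, the dotted line 2-fold lower and the dashed line 10 RPM in wild type; the 3 B1 sequences lie just under the dotted line and all other sequences over 10 RPM lie further below.

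L1 is the LINE family that still moves in the mouse genome, with promoter types named A, T, F and Gf. Its piRNAs summed to 11310.5 RPM in wild type, 335 in knockout sample 1 and 298 in knockout sample 2, 35.7-fold lower in the mean. All 15 L1 sequences over the filter were lower in both knockout samples, with a median log2 ratio of -5.34. L1_Mm_orf2, the second open reading frame that encodes reverse transcriptase, gave 5125.0, 147.4 and 146.4 RPM, and L1_Mus3_orf2 gave 2771.6, 65.88 and 55.81 RPM. The largest falls were found in 3′ ends, such as L1Md_T_3end at 684.8, 13.91 and 12.08 RPM (52.7-fold lower), L1Md_F2_3end at 626, 12.81 and 11.01 RPM and L1Md_A_3end at 477.5, 11.04 and 6.755 RPM (53.68-fold lower).

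The 5′ ends of L1, which hold the promoters, fell less, by 2.901-fold to 28.14-fold (L1_Mus3_5end) against 26.86-fold (L1_Mus4_3end) to 53.72-fold (L1_Mus1_3end) for the 3′ ends. L1Md_A_5end stood at 144.9 RPM in wild type and at 16.71 and 11.23 RPM in the knockout samples, 10.37-fold lower. L1Md_F_5end stood at 49.32, 2.78 and 1.96 RPM, 20.81-fold lower. L1Md_Gf_5end showed the smallest fall of any L1 sequence, with 75.75, 28.67 and 23.55 RPM (2.901-fold lower). Every 5′ end still had its 2 knockout values below wild type, the scarce L1VL1_5end included (16.46, 1.7 and 0.5 RPM). The other 3′ ends over the filter were L1Md_F3_3end (449.8, 7.75 and 9.16 RPM), L1_Mus2_3end (241.9, 5.965 and 4.465 RPM) and L1_Mus3_3end (156.2, 5.375 and 2.115 RPM). Outside L1, the old LINE relatives MusHAL1 (155.3, 19.05 and 9.4 RPM) and Lx3_Mus_3end (22.77, 4.41 and 2.74 RPM) were 10.92-fold and 6.369-fold lower.

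IAP, an endogenous retrovirus and the most abundant LTR family of the tables, had 9125.8 RPM in wild type, 708.1 in knockout sample 1 and 313 in knockout sample 2 (17.88-fold lower). It showed the widest gap between the knockout samples of the large families, and its 16 sequences over the filter had a median log2 ratio of -4.32, against -5.13 over all 70. IAPEz-int, the internal part of the autonomous IAPEz element, gave most of the family, with 6982.2, 560.6 and 236.1 RPM (17.53-fold lower). IAPA_MM fell least, from 242.8 to 39.74 and 15.49 RPM (8.79-fold), followed by the LTR IAPLTR1_Mm, from 376.3 to 45.66 and 23.56 RPM (10.87-fold). The IAPE relatives fell most: IAPEY3-int went from 323.8 to 4.135 and 3.075 RPM (89.81-fold) and IAPEy-int from 401.4 to 4.145 and 5.36 RPM (84.46-fold).

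The nonautonomous MT and ORR1 elements, which belong to the MaLR group, showed the largest fall of any family. Together they had 3008.6 RPM in wild type, 21.38 in knockout sample 1 and 18.32 in knockout sample 2, 151.5-fold lower. MT-int went from 1506.4 RPM to 3.31 and 4.89 RPM (367.4-fold lower, log2 -8.49 with 0.1 RPM added). MTA_Mm went from 900.2 to 6.225 and 5.965 RPM (147.7-fold) and ORR1A1-int from 320.7 to 3.795 and 4.955 RPM (73.31-fold). The knockout samples lay close to one another and far from wild type for each of these elements.

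MERVL, an endogenous retrovirus known for its transcription in early embryos, had 267.8 RPM in wild type and 5.26 and 6 RPM in the knockout samples (47.56-fold lower), and its LTR MT2_Mm had 131.5, 2.655 and 1.435 RPM. MMERVK10C, a class II endogenous retrovirus, had 205.8, 9.185 and 5.375 RPM (28.27-fold lower), and the related LTR RLTR10 had 29.54, 0.505 and 0 RPM. The early transposon elements were likewise lower, with ETnERV at 68.92, 0.35 and 0.815 RPM and RLTRETN_Mm at 11.89, 0.565 and 0.295 RPM. MMERGLN-int was under the filter, with 3.84, 0.405 and 0 RPM. Next to MT-int and MTA_Mm, the largest falls by log2 ratio with 0.1 RPM added were those of RLTR45 (30.33, 0.04 and 0 RPM), ERVB4_2-LTR_MM (24.21, 0.12 and 0 RPM) and MuRRS-int (80.35, 0.405 and 0.52 RPM). Knockout values of these 3 lay under the RPM of 3 reads in sample 2, so their exact ratios depend on the added value.

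SINEs are short, made by RNA polymerase III and copied by the L1 machinery. B1, derived from 7SL RNA, went from 4440.6 RPM in wild type to 2155.8 and 1796.1 RPM (2.247-fold lower). Its 3 sequences fell alike: B1_Mm stood at 2137.9, 1079.6 and 872.3 RPM, B1_Mus1 at 1171.5, 552.2 and 475.9 RPM and B1_Mus2 at 1131.1, 524 and 447.9 RPM. B2, derived from a tRNA, went from 3192.4 to 441.1 and 315.3 RPM (8.441-fold lower), and of its 3 sequences B2_Mm2 fell least, from 723.3 to 177.5 and 107.1 RPM, against 1460.9, 159.6 and 125 RPM for B2_Mm1a and 1008.2, 104 and 83.2 RPM for B2_Mm1t. The size of the fall depended on the scale. When RPM were divided by the share of miRNA reads, 66 of the 70 retrotransposons were still more than 2-fold lower, and the 4 exceptions were the 3 B1 sequences and L1Md_Gf_5end (1.725-fold lower). B1 then stood at 4440.6, 3215.8 and 3437.6 RPM (1.335-fold lower), while L1 was still 21.14-fold and MT/ORR1 still 89.87-fold lower. In 1 of the 4 knockout libraries, the 100-bp run of sample 1, B1 had 2807.5 RPM.

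For L1, IAP and MT/ORR1 the fall was largest at the length of piRNAs. In reads of 24 to 27 nt and of 28 to 33 nt L1 differed by log2 ratios of -5.13 and -5.19, IAP by -4.22 and -4.09 and MT/ORR1 by -7.36 and -7.08, so shorter and longer piRNAs fell to a like degree. In reads of 19 to 23 nt the ratios were -3.09 for L1, -2.94 for IAP and -4.70 for MT/ORR1. In reads of 11 to 18 nt, in which short sequences match many elements, they were -0.36, 0.02 and -0.50, and for IAP the knockout samples lay on either side of wild type. Reads of 34 to 48 nt, longer than piRNAs, gave -1.22 for L1, -3.53 for IAP and -3.36 for MT/ORR1. B1 was unlike the other families, with -1.39 at 11 to 18 nt, -1.38 at 19 to 23 nt, -1.44 at 24 to 27 nt, -0.58 at 28 to 33 nt and -1.45 at 34 to 48 nt, so that its smallest fall was at 28 to 33 nt. Most B1 reads of wild type were 19 to 23 nt long (21461.2 RPM, against 7644.6 and 8885.8 RPM in the knockout samples).

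**Figure D3:**
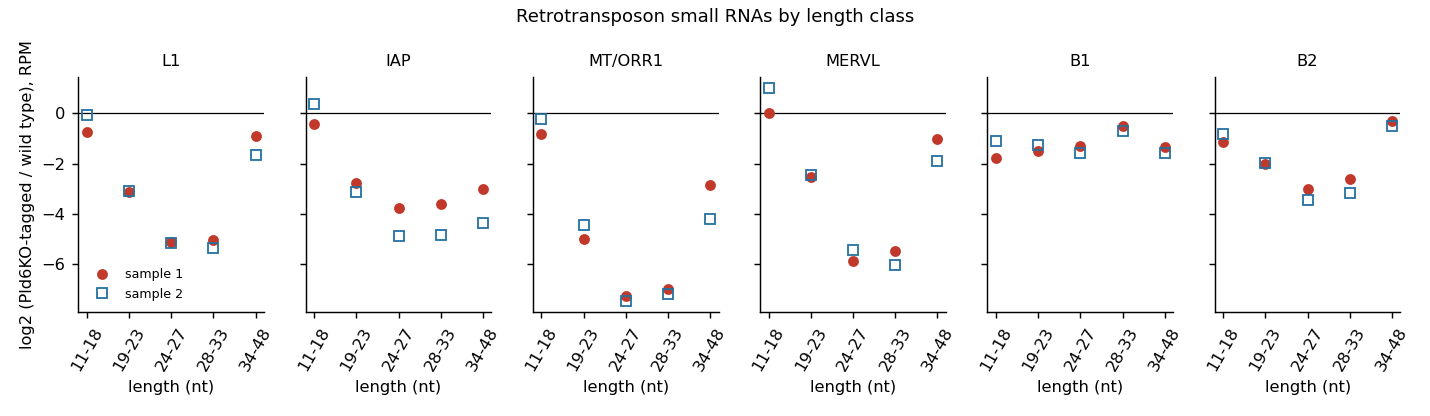
Log2 ratio of each knockout sample to wild type (vertical axis, from RPM) by read length class (horizontal axis, nt) for 6 retrotransposon families; red circles are knockout sample 1 and blue squares knockout sample 2, and the line at 0 marks the wild-type level. L1, IAP, MT/ORR1 and MERVL dip at 24 to 33 nt and lie much nearer 0 at 11 to 18 nt, whereas B1 has its smallest fall at 28 to 33 nt.

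Reads of both strands of the elements were lower. Antisense reads made up 40.53% of L1 piRNAs in wild type (40.28 to 40.78), 40.28% in knockout sample 1 (38.37 to 42.23) and 30.28% in knockout sample 2 (26.55 to 34.28), so sample 1 was within its interval of wild type. For IAP the shares were 31.13%, 28.31% and 30.72%; without the abundant IAPEz-int they were 42.72%, 29.46% and 25.82%. The strand balance moved more in MT/ORR1, from 21.38% to 51.32% and 49.13%, and in ERVB/ETn, from 76.76% to 41.94% and 60.11%, but with intervals of 33.11 to 65.32 and 31.13 to 83.4 in sample 2. B1 went from 41.7% to 44.93% and 49.26% and B2 from 6.721% to 12.58% and 11.68%, both knockout samples above wild type in each.

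Promoter regions of 7 families, taken from the amplicons of the study's bisulfite primers with their unconverted sequence restored, were searched for exact matches of 24 to 33 nt. On IAPLTR1_MM wild type had 534 reads on the listed strand and 313 on the opposite strand, knockout sample 1 had 86 and 8 and knockout sample 2 had 10 and 0. MT2-MERVL had 446 and 43 reads in wild type, 1 and 1 in knockout sample 1 and 2 and 0 in knockout sample 2. L1Md_A had 54 and 79 reads in wild type, 18 and 1 in knockout sample 1 and 3 and 0 in knockout sample 2. With the reads of both knockout samples pooled, IAPLTR1_MM was 3.862-fold lower on the listed strand (exact 95% interval 3.103 to 4.851) and 27.17-fold lower on the opposite strand (13.62 to 63.48). On L1Md_A it was 1.785-fold (1.061 to 3.112) and, with 1 knockout read, 54.85-fold (9.564 to 2193.7). These intervals cover counting error between libraries, not the genotypes. RLTR10C-MMERVK10C had 98 reads in wild type and none in the knockout, at least 22.68-fold lower against a floor of 3 reads over both knockout samples, and RLTRETN_Mm had 57 and none (at least 13.19-fold lower). RLTR6 (19 reads) and RLTR4 (12 reads) were also read in wild type only and were at least 4.398-fold and 2.777-fold lower by the same floor.

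Wild-type reads of these promoters often overlapped a read of the other strand by 10 nt, the spacing that ping-pong cleavage leaves. On IAPLTR1_MM 5409 of 14474 overlapping pairs of reads did so (37.37% of pairs with an overlap of 1 to 24 nt), on MT2-MERVL 185 of 556 (33.27%) and on RLTR10C-MMERVK10C 66 of 111 (59.46%), and 10 nt was the commonest overlap on each. L1Md_A had 132 of 564 pairs (23.4%) at 10 nt, but its commonest overlap was 5 nt, and RLTRETN_Mm had 0 of 100. In knockout sample 1 only 155 pairs were left on IAPLTR1_MM, of which 23 (14.84%) overlapped by 10 nt, with 21 nt the commonest. Too few pairs remained on the other promoters, and none in knockout sample 2. Over whole libraries thinned to 267971 reads of 24 to 33 nt, the number of complementary 10-nt starts relative to the number expected was 8.382 in wild type, 8.187 in knockout sample 1 and 8.96 in knockout sample 2 over distinct sequences, and 15.52, 5.15 and 7.28 over reads. The knockout samples lay on either side of wild type in the first measure and both below it in the second. Relative to overlaps of 11 to 15 nt the ratio over distinct sequences was 0.0586, 0.093 and 0.064, below 1 in all 3 samples. The number expected falls with each added base, so this ratio can lie below 1 even where 10 nt is the commonest overlap. It therefore cannot decide whether the excess was particular to 10 nt.

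Genic piRNAs were lower too. Reads of 24 to 33 nt that began with U and matched the sense strand of a single protein-coding gene summed to 50971.7 RPM in wild type, 3744.4 in knockout sample 1 and 1774.9 in knockout sample 2 (18.47-fold lower; knockout mean 2759.6 ± 1392.6, SD, n = 2). Over all first bases the sums were 63747.6, 13704.7 and 7819.2 RPM (5.923-fold lower). Reads counted for Tmem38b and Lars2, genes described below that did not fall, make up a large part of these knockout sums. The sums over all first bases are therefore not of piRNAs alone. Counted over all gene types, 1260 genes had at least 10 RPM in wild type or in the knockout mean, of which 1139 were more than 2-fold lower (90.4%) and 41 more than 2-fold higher (3.25%), each with both knockout samples on that side.

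Of 1071 protein-coding genes, 1049 were lower by this rule, 10 higher and 12 within 2-fold, with a median 34.88-fold lower, and 77 had no read in either knockout sample. Of the 1047 whose wild-type reads began with U in at least 50% of cases, 1040 were lower and 1 higher. Of the 24 whose reads did not, 9 were lower, 9 higher and 6 within 2-fold. Long noncoding RNAs, pseudogenes and the like were lower in 74 of 87. Genes of small RNAs, such as those of miRNAs and small nucleolar RNAs, were lower in 16, higher in 22 and within 2-fold in 64 of 102, with a median 1.006-fold. Most genes reached the filter through wild type, so the counts lean towards lower values as for the retrotransposons.

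The genes with most piRNAs in wild type were almost emptied. D10Wsu102e, whose annotated transcript is unusually long, went from 1253.3 RPM to 30.21 and 13.81 RPM. Abl2, which encodes a tyrosine kinase, went from 637.4 to 2.428 and 1.104 RPM, and Fth1, the ferritin heavy chain, from 606.2 to 2.293 and 0.552 RPM. Fth1 has retrocopies in the genome, and reads of those could be counted for it. Tmem245 stood at 478, 9.037 and 7.731 RPM and Gabpb2 at 400.3, 4.181 and 2.761 RPM.

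Further genes with many wild-type piRNAs were left with a handful of reads. Rab11fip4, a Rab effector, had 5532 reads in wild type, 5 in knockout sample 1 and 0 in knockout sample 2. Tfcp2l1, a transcription factor of pluripotent cells, had 4916, 5 and 0 reads. Bend4 stood at 360, 2.023 and 2.761 RPM, Cbl, a ubiquitin ligase, at 300.4, 3.507 and 1.657 RPM and Trim71, a let-7 target, at 223.4, 0 and 1.104 RPM. The long noncoding RNA AU020206 had 221.1 RPM in wild type and 0.405 and 0 RPM in the knockout samples. For each of these genes both knockout samples were far under wild type. Over the 69 protein-coding genes with at least 100 RPM and mostly U starts in wild type, a median of 0.57% of the wild-type level was left, and over all 1047 with mostly U starts 2.32%. Most of the 1047 were under 100 RPM in wild type, where single knockout reads weigh on the percentage. In knockout sample 2, 1 read was 0.552 RPM, so the difference between the medians cannot be read as one in what was left.

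A few genes did not fall. Tmem38b had 2161.8 RPM in wild type and 3458.7 and 2493.4 RPM in the knockout samples, with 10.98% U at the first base in wild type. Reads counted for Lars2 rose from 293.9 to 1908.4 and 735 RPM, with 21.1% U. They were placed by match to transcripts alone, so reads of ribosomal RNA that share a stretch could be counted, as for Tmem38b, which was not tested. The most-read wild-type sequence of Lars2 went the other way, with 29.96 RPM in wild type and 21.99 and 8.284 RPM in the knockout samples. Rpl13 rose from 291.2 to 909.5 and 375 RPM and was the 1 higher gene with mostly U starts (98.11%); it hosts a small nucleolar RNA in an intron. The other higher genes included 6 of the mitochondrial genome, singled out after their values were seen, namely mt-Co1 (6.774, 32.78 and 14.36 RPM), mt-Nd1, mt-Nd2, mt-Nd3, mt-Cytb and mt-Atp8.

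**Figure D4:**
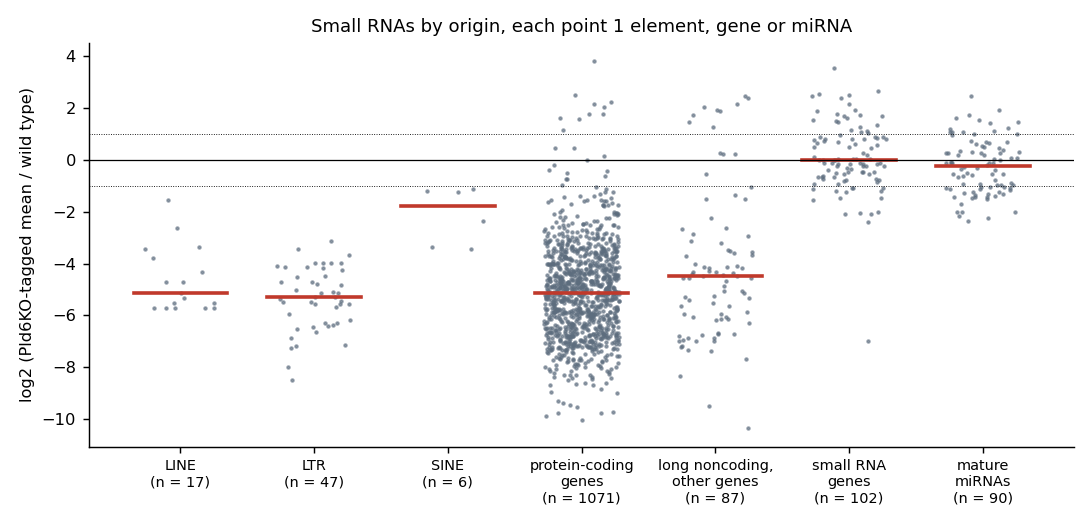
Log2 ratio of the knockout mean to wild type (vertical axis, 24- to 33-nt RPM, for miRNAs reads of 19 to 25 nt) by origin of the small RNA; each point is 1 retrotransposon, gene or miRNA over the filter, red bars are medians, dotted lines 2-fold. The medians of LINE, LTR and protein-coding genes lie near -5, that of SINEs at -1.78, and those of small RNA genes and miRNAs near 0.

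Within transcripts the ratio was largest in 3′ UTRs. Over 13625 protein-coding genes, reads beginning with U stood in 3′ UTRs at 36428.6 RPM in wild type and 1464.9 and 699.1 RPM in the knockout samples (33.67-fold lower), in coding sequence at 10202.6, 778.3 and 435.2 RPM (16.82-fold) and in 5′ UTRs at 1433.5, 79.58 and 48.6 RPM (22.37-fold). The 3′ UTR took 75.79% of these reads in wild type (75.69 to 75.9), 63.07% (62.34 to 63.79) and 59.1% (57.01 to 61.17) in the knockout samples, against 45.06% of transcript length. Reads with other first bases were lower by less, by 1.45-fold in 3′ UTRs, 1.987-fold in coding sequence and 2.003-fold in 5′ UTRs. The 3′ UTR value includes the Tmem38b sequence that is the 3′ end of 5S ribosomal RNA (646.5, 643.1 and 466.1 RPM). Further reads counted for Tmem38b and Lars2, which did not fall, could weigh heavily on it. The ratio without these genes was not computed, so 1.45-fold cannot be read as the fall of genic piRNAs. The difference was larger in reads that begin with U but was not confined to them: at 25 to 28 nt, protein-coding reads with other first bases stood at 10963.8, 5147.7 and 3023.5 RPM (2.684-fold lower).

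**Figure D5:**
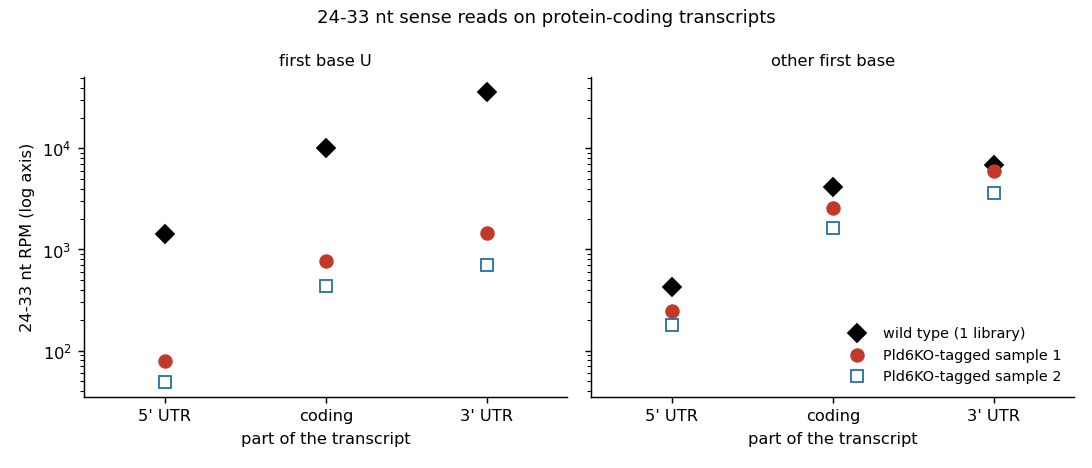
24- to 33-nt sense reads of protein-coding transcripts in RPM (vertical, log axis) by part of the transcript, for reads that begin with U (left) and others (right); black diamonds are wild type, red circles knockout sample 1 and blue squares knockout sample 2. The gap between wild type and knockout is wide in the left panel and smaller in the right one.

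Phased cutting by Zucchini is known to leave a U just behind the 3′ end of a piRNA that is not yet trimmed. In wild type, U stood at the base after the 3′ end of 26.55% (26.39 to 26.71) of distinct genic piRNAs, against a mean of 26.42% at the next 9 bases, and in the knockout samples at 26.35% and 25.67% against 28.5% and 26.51%. No excess of U behind the 3′ end was seen in wild type. The reads were of piRNA length, so their 3′ ends need not be the cut ends. The measure therefore cannot decide whether cutting was phased. Of all 24- to 33-nt reads, those that began with U but had no exact transcript match stood at 98851.6, 43938.6 and 32562.9 RPM (2.584-fold lower).

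The miRNAs differed much less than LINE and LTR piRNAs, though their share of reads was lower in both knockout samples too. They made up 12.76% of reads in wild type, 8.554% in knockout sample 1 and 6.667% in knockout sample 2. Of 90 mature miRNAs with at least 100 RPM, 27 were more than 2-fold lower (30%), 14 more than 2-fold higher (15.6%), and the median log2 ratio was -0.24. Counted relative to all miRNA reads, 6 were lower and 31 higher, with a median of 0.50, so the direction of the miRNAs turned with the scale. The leading miRNAs and those that moved most are shown with the seed (bases 2 to 8) in capitals, from the RefSeq table of GRCm38.p6, with members of a shared seed together.

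miR-881-3p: aACUGUGUcuuuucugaauaga
miR-7a-5p: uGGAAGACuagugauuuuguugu
miR-741-3p: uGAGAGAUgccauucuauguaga
miR-465a-5p: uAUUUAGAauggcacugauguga
miR-465b-5p: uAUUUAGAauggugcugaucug
miR-465c-5p: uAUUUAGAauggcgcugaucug
miR-883a-3p: uAACUGCAacagcucucaguau
miR-883b-3p: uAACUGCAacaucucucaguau
miR-126a-3p: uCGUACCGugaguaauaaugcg
miR-24-3p: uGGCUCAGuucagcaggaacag

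miR-881-3p, of a cluster on the X chromosome expressed in testis, was the most abundant in wild type, with 19595.2 RPM there and 6992.5 and 5111.5 RPM in the knockout samples (log2 -1.70). miR-871-3p of the same chromosome stood at 11171.0, 8647.1 and 6985.8 RPM, and miR-7a-5p at 11069.8, 4521.7 and 3284.2 RPM. In the seed family AUUUAGA, miR-465c-5p stood at 8767.6, 3950.2 and 2875.0 RPM, miR-465b-5p at 6783.2, 3362.5 and 1854.4 RPM and miR-465a-5p at 1779.5, 566.8 and 223.1 RPM (log2 -2.17), all 3 with both knockout samples below wild type. These sequences differ at few bases, and reads of one could be counted for another. In the same order of samples miR-741-3p had 5649.9, 1942.1 and 832.2 RPM, miR-470-5p 5443.3, 3379.5 and 2391.8 RPM, miR-148a-3p 4121.9, 1862.7 and 1991.4 RPM, miR-30a-5p 3336.4, 2152.8 and 1244.8 RPM and miR-743b-3p 3282.9, 1870.1 and 1038.8 RPM.

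The largest falls by ratio were those of miR-379-5p (147.5, 27.38 and 29.82 RPM) and miR-182-5p (166.5, 55.03 and 16.01 RPM), then miR-465a-5p, miR-741-3p and miR-203-3p (639, 184.2 and 134.7 RPM). The largest rises were those of miR-883b-3p (19.57, 167.9 and 50.25 RPM), miR-24-3p (53.89, 170.9 and 241.3 RPM), miR-126a-3p (190.4, 545.5 and 734.5 RPM), miR-29a-3p (87.24, 386.8 and 145.2 RPM) and miR-741-5p (38.09, 139.9 and 80.07 RPM). None of them came near the ratios of the LTR elements.

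Lists of marker miRNAs were read for cell types that could be in the sort, which does not give the make-up of the cells. The 12 miRNAs listed for spermatogonia summed to 5568.2 RPM in wild type and 5584.0 and 5056.3 RPM in the knockout samples, with 3 of 12 lower and 5 higher in both. Much of each sum came from miR-21a (2606.9, 3007.8 and 3637.1 RPM). Counted relative to all miRNA reads, 9 of the 12 were higher in both knockout samples and 1 was lower in both. Those of meiotic cells, miR-34b, miR-34c, miR-449a and miR-449c, were near 0, with 7.979, 8.363 and 1.104 RPM in sum. Those of pluripotent and primordial germ cells, miR-291a, miR-294, miR-295 and miR-302a, were low too, with 1.129, 8.363 and 3.313 RPM in sum, 2 of 4 higher in both knockout samples and miR-291a and miR-302a at 0 throughout. Markers of other cells were higher in both knockout samples: miR-126a of endothelium (190.4, 545.5 and 734.5 RPM), the 3 of Sertoli and other somatic testis cells (323.9, 551.6 and 562.5 RPM in sum, most from miR-202 at 202.3, 463.4 and 392.6 RPM, 1 of 3 higher in both) and the 5 of blood (27.32, 55.71 and 43.63 RPM in sum, 2 of 5 higher in both, miR-150 at 0 throughout). The let-7 family summed to 8520.4, 3334.6 and 7887.7 RPM, so the knockout samples differed from one another. In bulk samples fewer cells of a type and less RNA per cell cannot be told apart, and the part of these markers in the lower piRNA values was not tested. Markers of muscle, peritubular cells and liver were not analysed here.

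Other RNAs also took a different share of the libraries. Reads that start with the first 12 bases of the most-read knockout sequence, cgcgacctcagatcaga, the 5′ end of 28S ribosomal RNA, made up 1.764% of all reads in wild type, 11.63% in knockout sample 1 and 10.31% in knockout sample 2, and 0.137%, 4.351% and 1.337% of those of 24 to 33 nt. Mitochondrial rRNA and tRNA reads of 24 to 33 nt stood at 1344.8, 3811.3 and 1826.8 RPM, and those of small nucleolar, small nuclear and other small RNAs at 16185.5, 20576.7 and 10445.1 RPM, the last on either side of wild type. The part of these fragments in the RPM values was not tested.

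Leptotene/zygotene spermatocytes, the next stage, had 2 wild-type and 2 knockout-tagged samples. LINE piRNAs stood there at 4402.9 and 10636.6 RPM in wild type and 496.8 and 405.7 RPM in the knockout, and IAP piRNAs at 8279.1 and 13946.6 against 4073.8 and 2973.4 RPM. MT/ORR1 piRNAs stood at 1648.3 and 2995.9 against 18.28 and 9.9 RPM. B1 went the other way, with 2607.3 and 3813.4 RPM in wild type and 16089.0 and 18223.0 RPM in the knockout, so that the sum of all listed retrotransposons was 22091.7 and 37676.6 RPM against 22387.5 and 23471.2 RPM. In spermatogonia all of these were lower in both knockout samples, B1 included. The difference between the stages was not tested, since spermatogonia had 1 wild-type library.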

How the data were processed

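Small RNA libraries were made with the TruSeq Small RNA kit. Per the study's methods and the submitters' processing notes, the authors trimmed adapters with cutadapt (version not given in the sources used here), set aside miRNAs and other plentiful noncoding RNAs, and mapped what was left to retrotransposon consensus sequences with SeqMap, dividing reads that match several sequences. They deposited, per library, the resulting RPM by length class and strand, and a list of distinct trimmed sequences with read counts. One line of the wild-type list had no count and was skipped.

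RPM of technical replicates were averaged, and deposited counts were summed, per biological sample. Reads from 11 to 49 nt were used; piRNAs were taken as 24 to 33 nt. Log2 ratios had 0.1 RPM added. A feature was called when its log2 ratio exceeded 1 in size, both knockout samples lay on that side, and wild type or the knockout mean reached 10 RPM (miRNAs 100 RPM). Sequences were matched exactly to amplicons and to GENCODE M21 transcripts (GRCm38); a gene's reads are sense and match no other gene. miRNA reads had 19 to 25 nt and began within 2 nt of a RefSeq mature start. Antisense shares use deposited RPM, and their intervals take RPM times the reads of the library as counts. Named features were every LINE and SINE over the filter, the leading LTR elements, genes and miRNAs and the largest changes; the text gives those that carry the result. Members, rules and lists were chosen with earlier results of these data known. Samples carried no label that says their cultures or animals were separate beyond the biological replicate number. Analyses used Python 3.11.15, numpy 2.4.6, pandas 2.3.3 and scipy 1.17.1, and figures matplotlib 3.10.9; the calls, overlap counts and matching were tested on simulated data. Alternatives were other scalings and filters, each technical replicate alone, leaving out a knockout sample, and, for genes and miRNAs, settings chosen after seeing the data.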

Additional observations from a re-analysis of the deposited data

How the results depend on the processing

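No paired analysis was possible because wild type had 1 library with no replicate number and the results come from no test. Of 142 recomputed values for 23 results, 102 stayed within the spread of the knockout samples or within 1.5 times a count, 38 moved and 2 reversed; the cause was not tested. All are knockout relative to wild type, ratios in log2. Divided by the miRNA share, the listed total was -2.59, LINE -4.34 and SINE -0.95. Rescaled to the listed total, LINE was -1.75, LTR -1.28, IAP -0.88 and SINE reversed to 1.64, with 8 retrotransposons higher. In the 50-bp run alone the total was -3.76, LINE -5.48, SINE -2.14 and the miRNA share -1.22; in the 100-bp run alone -2.999, -4.79 and -1.36 for the first 3. Retrotransposons over 2-fold lower numbered 141 at 1 RPM, 43 at 50 RPM and 211 of all 262 with no filter, where 1 was higher. The totals that passed each other changed filter or scale are not given here, for retrotransposons or genes, so those counts cannot be read as shares. As a mean over sequences, the antisense difference reversed to 1.70 percentage points for L1, and was -15.3 for IAP and 4.19 for B2 (6.05 in the 50-bp run). The 24- to 33-nt share differed by -31.2 points over distinct sequences. The U share differed by -35.8 and -33.2 points in the 50-bp and 100-bp runs, -40.9 over distinct sequences, -35.5 outside miRNA hairpins, -40.2 at 25 to 28 nt and -33.4 at 29 to 32 nt, and A at position 10 by -0.54 at 29 to 32 nt. L1Md_A promoter reads were -1.58 per 24- to 33-nt read and -1.52 per miRNA read. Genic reads of 24 to 33 nt over all first bases were -2.57. At 50 RPM 194 protein-coding genes were lower and 2 higher; 4 were higher in the 50-bp run, and 4 to 11 when a knockout sample was left out (4 without sample 1). Relative to all miRNA reads 6 miRNAs were lower and 31 higher. Depth limits single elements: values under 1.66 RPM in knockout sample 2 cannot be told from 0.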

Other observations

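Protein-coding genes gave few antisense piRNAs in either genotype. Over the 1071 protein-coding genes, antisense reads of 24 to 33 nt summed to 394.5 RPM in wild type. They summed to 38.17 RPM in knockout sample 1 and 16.57 RPM in knockout sample 2. In the same order they were 0.893%, 0.434% and 0.337% of reads on these genes. Reads counted for Tmem38b, Lars2 and Rpl13, which did not fall, make up a large part of the knockout sense reads. The shares without them were not computed, so the lower knockout shares cannot be read as a change in strand balance of genic piRNAs. D10Wsu102e gave 168.3 of the 394.5 RPM in wild type and 6.474 and 4.418 RPM in the knockout samples.

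miRNAs of the X chromosome held 59.32% of the RPM of the 90 abundant miRNAs in wild type, 55.4% in knockout sample 1 and 45.49% in knockout sample 2. Of these 26 miRNAs 6 were more than 2-fold lower and 6 more than 2-fold higher, against 21 and 8 of 64 on other chromosomes.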
